A study of Mus musculus with 235 samples.

Results

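The punches labelled CER in saline-treated mice were compared with the punches of 7 other brain regions, to describe which genes set that tissue apart before any drug effect. The members are the 15 CER libraries of vehicle animals, chosen by region and treatment label alone, out of 8 vehicle groups. The other 7 groups are AMY, PFC, dCA1, dDG and vDG, with 15 libraries each, and PVN and vCA1, with 14 each, and the dexamethasone arm holds the same 8 regions with 13 to 15 libraries each. All animals were C57Bl/6 males aged 3 months that received 0.9% saline intraperitoneally, with tissue taken 4 h later. A second arm was given 10 mg/kg of the synthetic glucocorticoid dexamethasone, and its 15 CER libraries served here as a repeat in other animals. Brains were perfused and frozen, regions were punched from coronal sections, and messenger RNA was read from its 3′ end with molecular identifiers. The labels use the 8 region names without spelling them out. The animal number ties the libraries of 1 mouse together across regions, so each mouse carries its own comparison.

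The cerebellar cortex is built from a few cell types with well-known marker genes: granule cells, which carry the GABA-A receptor subunit gene Gabra6, Purkinje cells, which carry Pcp2, and Bergmann glia. Beneath the cortex lie the deep cerebellar nuclei, and beneath the cerebellum lies the brainstem, made of midbrain, pons and medulla. Brainstem neurons keep a transcription factor code from the embryo in which Otx2 and Pax7 mark midbrain, En1 and Pax5 mark the midbrain-hindbrain boundary, and Hox genes mark the hindbrain and spinal cord. Forebrain neurons instead keep Emx1, Tbr1 or the Dlx genes. Serotonin neurons, whose cell bodies sit in the raphe nuclei of the brainstem, are recognised by Tph2, Slc6a4 and Fev.

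CER libraries held 268538 to 978777 counts with a median of 664368, and the other vehicle libraries held 297943 to 1451422 with a median of 740975. RNA integrity (RIN) was 6.07 ± 1.27 (SD, n = 15) in CER and 6.42 ± 1.12 (SD, all other vehicle libraries) elsewhere. CER replicate 8 had the lowest total and a RIN of 2.5, and is the 1 CER vehicle library not listed in the authors' variance-stabilised tables. Levels are given as CPM, which are counts per 1000000 scaled by the trimmed mean of M values (TMM). In bulk punches, fewer cells of a type and less RNA per cell cannot be told apart.

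Defining genes of the cerebellar cortex were at or near 0 in the CER punches. Gabra6 had 0 counts in all 15 CER libraries, and 3 counts, the limit that a count of 0 allows, correspond to 2.94 to 12.0 CPM in a single CER library and to 0.294 CPM over all 15. Pcp2, a Purkinje cell gene, had 7 counts in 2 of the 15 libraries. Cbln3, a granule cell gene, had 26 counts in 11 libraries, with a highest level of 10.9 CPM, and Fat2, another granule cell gene, had 17 counts in 6. The markers of cerebellar cortex thus go against the label if CER stands for that tissue, and the members are called the CER punches throughout.

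Gabra6 and Cbln3 were present at higher levels in 4 libraries with other labels, as the plot of levels by region shows. Gabra6 stood at 245 CPM in vDG replicate 4, 173 CPM in vDG replicate 15, 52.6 CPM in vDG replicate 14 and 254 CPM in vCA1 replicate 15. Cbln3 stood at 388, 247, 144 and 437 CPM in those libraries. Pcp2 stood at 86.3, 48.5, 0 and 125 CPM in the same order, so it was not read in vDG replicate 14, where Fat2 was at 5.54 CPM. These transcripts were therefore detectable with this assay, and the libraries that held them are part of the comparison group. Whether each punch came from the region on its label was not tested, so every difference below is between libraries as labelled. Leaving out all vCA1 and vDG libraries gave 167 enriched genes in place of 173, of which 153 were the same.

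**Figure D1:**
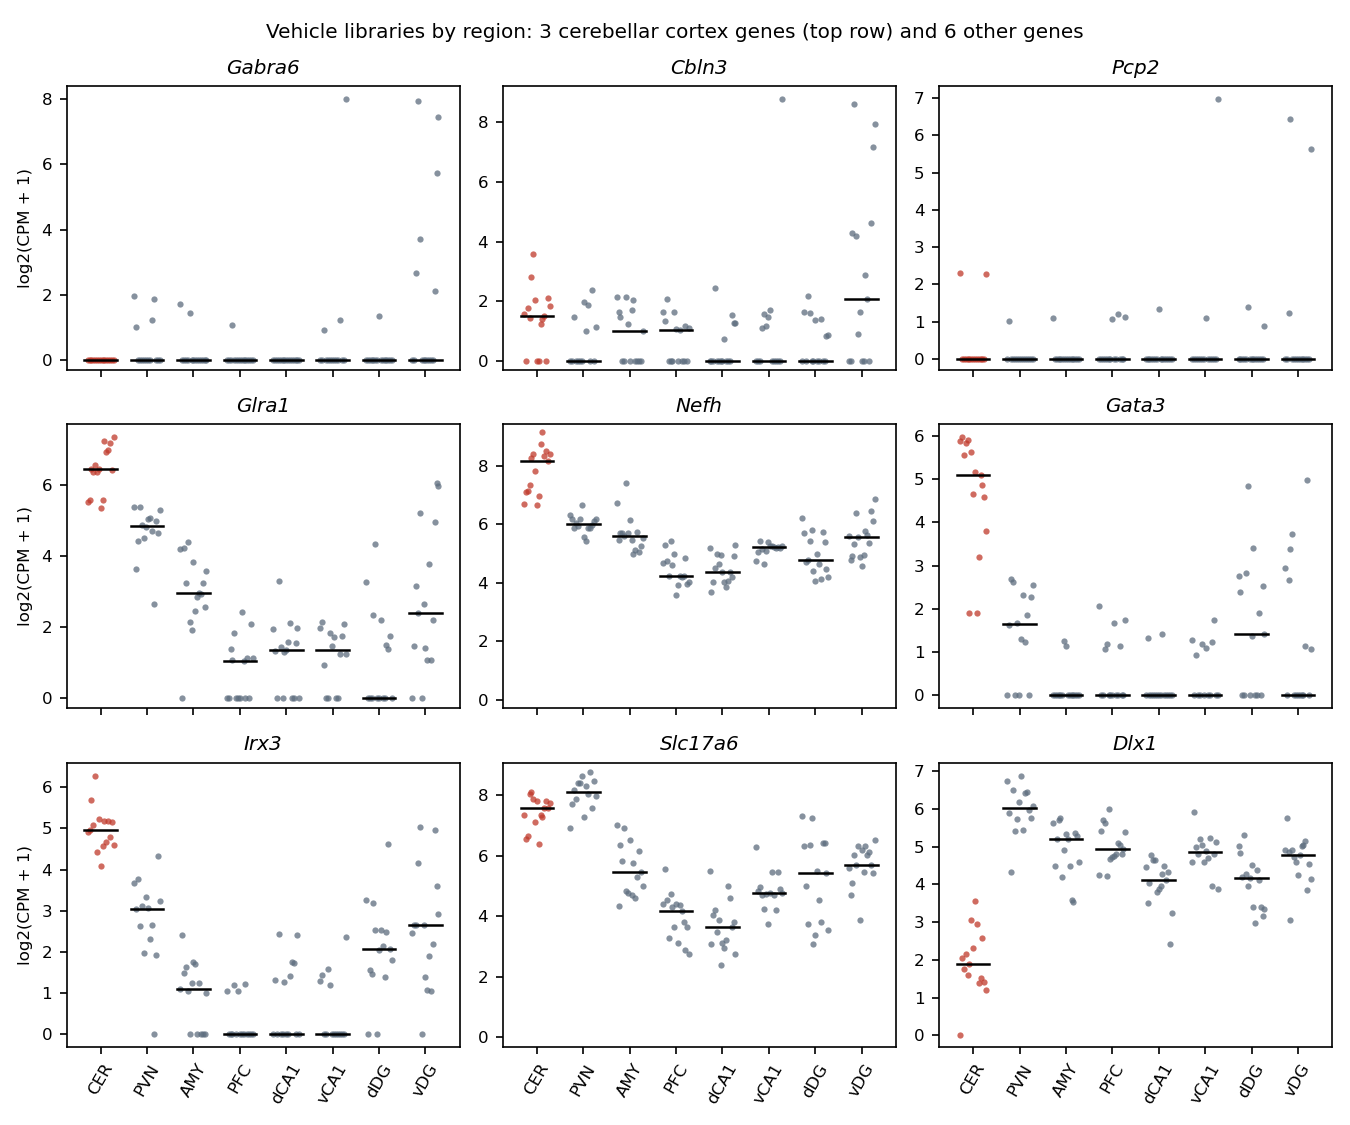
Level of 9 genes in every vehicle library, as log2(CPM + 1), by region on the x axis. Each point is 1 library (CER in red, 15 libraries; other regions in grey, 14 or 15 each) and the black bar is the group median. Gabra6 is at 0 in every CER library and above 50 CPM in 3 vDG libraries and 1 vCA1 library, while Glra1, Nefh, Gata3 and Irx3 have their highest median in CER.

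The CER punches were compared with the mean of the 7 other regions, with each animal as a block. Of 10451 genes tested, 5007 (47.9%) passed an adjusted p of 0.05 with edgeR's quasi-likelihood test, 2507 higher (24%) and 2500 lower (23.9%), and the median difference over all genes was -0.01 on the log2 scale. A stricter test asked for a difference beyond 2-fold. It called 173 genes enriched (1.66% of genes tested) and 140 depleted (1.34%), and these words are used below only for that call. Of the 173 enriched genes, 141 were above every one of the 7 regions in the fit. The nearest region was PVN for 83 of the 173 and AMY for 76. CER differed from PVN in 2569 genes and from AMY in 2699, 24.6% and 25.8% of genes tested. The share was 40.4% for vDG, 41.9% for vCA1, 48.3% for PFC, 49.8% for dDG and 52.5% for dCA1, so PVN and AMY were nearest by both counts.

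No gene separated the groups completely: 0 genes (0%) had their lowest CER library above every other vehicle library, and 0 genes (0%) had their highest CER library below every other. Single libraries of vDG, dDG, PVN and AMY reached into the CER range. The highest level outside CER was in vDG replicate 13 for Gata3, Nefm and Pygm, in vDG replicate 5 for Irx3, Vamp1, Spp1 and Nefl, and in vDG replicate 14 for Klk6, Glra1 and Cyp27a1.

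Transcription factor genes of the midbrain and hindbrain were among the enriched genes, and Gata3 and Irx2 had the largest differences of those with a CER mean of at least 10 CPM. Of 22 such genes on a list, Otx2, Gata3, Irx1, Irx2, Irx3 and Lhx1 passed the count filter, several of them largely through their counts in CER, so that being higher there was in part fixed by the filter. All 6 were called higher and 5 enriched, where 24% and 1.66% of all genes tested were, and nothing is read from that count. Gata3 (ENSMUSG00000015619, chromosome 2, 9857078 to 9890034), a zinc finger factor of brainstem GABA and serotonin neurons, ran from 2.71 CPM through a median of 33.4 to 61.5 CPM in the 15 CER libraries. Its median was 0 in AMY, PFC, dCA1, vCA1 and vDG, 1.66 CPM in dDG and 2.13 CPM in PVN, and 8 CER libraries lay above the highest other library, at 30.3 CPM. CER replicates 6 and 10 had the lowest levels, 2.72 and 2.71 CPM, inside the range of the other regions. The log2 difference of Gata3 was 4.69 ± 0.26 (SE; adjusted p = 1.06e-31, edgeR), the largest among enriched genes with a CER mean of at least 10 CPM.

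The Iroquois family genes Irx1, Irx2 and Irx3, which encode homeodomain factors that pattern the midbrain and hindbrain, were all enriched. Irx2 (chromosome 13, 72628820 to 72634198) ran from 10.1 through 20.7 to 135 CPM in CER, with a highest level elsewhere of 30.1 CPM in dDG replicate 13, and its difference was 4.48 ± 0.26 (SE; adjusted p = 8.83e-31, edgeR). Irx3 (chromosome 8, 91798525 to 91801916) ran from 16.0 through 30.0 to 77.0 CPM, and 5 libraries elsewhere reached the lowest CER library. Irx1, a neighbour of Irx2 on chromosome 13, ran from 16.3 through 34.6 to 70.7 CPM, with 9 libraries elsewhere reaching the lowest. For all 3 genes PVN came closest in the fit, 2.71 (Irx2), 2.15 (Irx3) and 1.03 (Irx1) log2 units below CER. Lhx1, a LIM homeodomain factor, ran from 3.30 through 14.9 to 40.9 CPM and overlapped PVN, with a difference of 0.28 from PVN and 2.81 ± 0.28 (SE) from the mean.

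The remaining 16 genes of that list were below the count filter and are described by levels and by a fit without the filter, in which 21 of the 22 had counts and all 21 were higher in CER (14.9% of 20699 genes were higher there). En1, a homeodomain factor of the midbrain-hindbrain boundary, was detected in all 15 CER libraries, from 2.72 through 11.6 to 139 CPM, against a highest level elsewhere of 12.2 CPM in vDG replicate 5. Pax5, its partner in boundary patterning, ran from 0 through 7.26 to 169 CPM, and Pax7, a factor of dorsal midbrain, from 0 through 9.33 to 75.9 CPM. CER replicate 2 held the highest En1 and Pax5 and no Pax7, whereas replicates 8 and 1 held the highest Pax7, 75.9 and 63.7 CPM, with 3.99 and 0.98 CPM of Pax5. The genes thus differed among CER libraries and were not shared evenly.

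The promoters of Gata3 and Irx2, the 2 enriched genes with the largest differences, are shown because both are regulators whose transcripts mark the CER punches. They run from 250 bases before to 50 after the annotated start, in RefSeq on GRCm38.p6: chr2:9878551-9878850 on the minus strand for Gata3 (the first of the gene's entries) and chr13:72628570-72628869 on the plus strand for Irx2. Capitals mark matches to 3 motifs searched on both strands: AGATAA for zinc finger factors of the Gata3 family, ACANNTGT for Iroquois factors and TAATTA for other homeodomain factors.
Gata3: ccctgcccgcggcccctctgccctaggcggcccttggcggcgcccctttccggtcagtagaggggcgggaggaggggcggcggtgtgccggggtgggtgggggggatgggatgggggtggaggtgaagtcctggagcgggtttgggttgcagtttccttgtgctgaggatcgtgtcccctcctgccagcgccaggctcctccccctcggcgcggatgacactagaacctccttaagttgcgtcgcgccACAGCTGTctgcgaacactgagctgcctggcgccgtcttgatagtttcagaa
Irx2: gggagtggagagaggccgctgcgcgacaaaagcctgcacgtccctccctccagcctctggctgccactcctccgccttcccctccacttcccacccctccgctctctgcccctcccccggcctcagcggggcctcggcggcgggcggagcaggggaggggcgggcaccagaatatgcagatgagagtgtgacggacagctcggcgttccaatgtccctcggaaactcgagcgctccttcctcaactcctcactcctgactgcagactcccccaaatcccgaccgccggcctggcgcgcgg

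Both are rich in CG dinucleotides, with 22 in Gata3 and 25 in Irx2 against a median of 7 over 27025 promoters of the same length. This is not particular to enriched genes, since the median was 14 over the enriched and 20 over the depleted genes. Gata3 holds 1 match to ACANNTGT, and Irx2 holds none of the 3 motifs. Over 136 enriched genes with a promoter in the table, 7 (5.15%) held ACANNTGT, 10 (7.35%) held AGATAA and 2 (1.47%) held TAATTA, against 7.36%, 11.4% and 5.31% of all promoters. These are letter matches only.

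Genes of the forebrain were lower in the CER punches than in the mean of the 7 regions, with levels near those of PVN. All 12 forebrain transcription factor genes tested were lower (background 23.9%), 6 of them depleted, with a median log2 difference of -1.77. The summed level of the list had a median of 298 CPM in CER and 244 CPM in PVN, against 1020.3 CPM in AMY and 1717 to 2410 CPM in the other regions, and the CER range of 144 to 1317 CPM took in the whole PVN range of 195 to 335 CPM. Of the 140 depleted genes, 111 had PVN as the nearest region. The 10 depleted genes with the most negative differences included the transcription factor genes Lhx6 (-3.28), Dlx6 (-3.22), Dlx2 (-2.97) and Dlx1 (-2.87) of forebrain inhibitory neurons. The Dlx6 antisense transcript Dlx6os1 (-2.85), the potassium channel gene Kcnj4 (-2.58), Lrrc10b (-2.59), A830036E02Rik (-2.97) and 3110039M20Rik (-2.55) were also among them. Of these, Kcnj4 and 3110039M20Rik were 0.35 and 0.52 above PVN, and Lrrc10b was 0.15 above PFC. Dlx1 ran from 0 through 2.72 to 10.9 CPM in CER, and every library of the other regions lay above the CER median. The groups overlapped in Dlx1, since the lowest other library stood at 4.34 CPM.

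CER replicate 9 was the highest CER library for Camk2a, a kinase of forebrain excitatory neurons (1701 CPM against a CER median of 403.9), and for Slc17a7 (231 against 56.0 CPM). Without replicate 9 the count of depleted genes rose from 140 to 212.

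Transmitter genes differed in how far they set the CER punches apart from the other regions. Slc17a6, the vesicular glutamate transporter of subcortical neurons, ran from 82.3 through 188 to 274 CPM in CER and was enriched (2.01 ± 0.16, SE; adjusted p = 1.81e-21, edgeR), although PVN was higher by 0.68 log2 units with a median of 275 CPM. Slc17a7, the transporter of cortical, hippocampal and cerebellar granule neurons, was lower at -0.98 ± 0.21 (SE; adjusted p = 2.93e-05, edgeR) and ran from 7.89 through 56.0 to 231 CPM. Against the mean of AMY, PFC and PVN alone its difference was 0.25 and did not pass (adjusted p = 0.418, edgeR). Gad1, the enzyme of GABA synthesis, ran from 66.6 through 232 to 549 CPM and did not pass the test (-0.07 ± 0.11, SE; adjusted p = 0.660, edgeR). Gad2, the second such enzyme, was higher by 0.53, but its difference was -0.18 against the mean of AMY, PFC and PVN, which did not pass (adjusted p = 0.259, edgeR).

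Glycine is the fast inhibitory transmitter of the brainstem and spinal cord, and 3 of its 5 genes tested were higher in the CER punches (background 24%). Glra1, the adult receptor subunit, ran from 39.9 through 87.0 to 163 CPM, and 4 libraries elsewhere reached the lowest CER library. Its medians elsewhere were 27.8 CPM in PVN, 6.82 CPM in AMY, 4.21 CPM in vDG and at most 1.57 CPM in the rest, and the difference was 4.47 ± 0.20 (SE; adjusted p = 5.41e-40, edgeR). The other higher genes were the transporter Slc6a9 (2.15 ± 0.12, SE) and the receptor subunit Glrb (0.61 ± 0.06, SE), and Glra2 (0.19) and the anchor gene Gphn (0.06) did not pass. Slc6a5, the transporter that defines glycine-releasing neurons, was below the filter and ran from 0 through 20.4 to 57.5 CPM, with a highest level elsewhere of 24.2 CPM in vDG replicate 15. CER replicates 7 and 10 to 15 exceeded that level, and replicate 2 had no count.

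Monoamine genes were high in most CER libraries and nearly absent in a few. Slc18a2, the vesicular monoamine transporter, ran from 0 through 42.7 to 382 CPM and was enriched at 4.35 ± 0.21 (SE; adjusted p = 8.05e-36, edgeR), and 10 CER libraries lay above the highest other library, a PVN library at 20.5 CPM. Tph2, the serotonin synthesis enzyme of brain, ran from 0 through 59.4 to 495 CPM, and 11 of 15 CER libraries lay above the highest other library, at 6.82 CPM. Slc6a4, the serotonin transporter, ran from 0 through 31.5 to 284 CPM, with 11 libraries above the highest other, and Fev, the serotonin neuron factor, from 0 through 6.08 to 64.7 CPM, with 10 above. CER replicates 1, 8, 10 and 11 held at most 5.43 CPM of Tph2, and replicate 2 held the most of all 3 genes.

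Of 4 genes of dopamine neurons tested, Th, Ddc and Slc18a2 were higher and enriched (background 24% higher). Slc18a2 passed the count filter largely through its counts in CER, so being higher there was in part fixed by the filter. Nothing is read from the count of higher genes. Nr4a2, a nuclear receptor of dopamine neurons, was lower (-0.78 ± 0.25, SE; adjusted p = 0.00564, edgeR). In the fit without the count filter 7 of all 8 on the list were higher (background 14.9%). Th, the rate-limiting enzyme of catecholamine synthesis, ran from 0 through 6.78 to 366 CPM, and Slc6a3, the dopamine transporter, from 0 through 1.63 to 398 CPM, both with their highest value in CER replicate 2. The second highest CER library was replicate 5 for each, at 56.8 and 32.4 CPM. Th was enriched against the mean of 7 regions at 2.58 ± 0.28 (SE; adjusted p = 3.67e-14, edgeR) but lay 1.03 log2 units below PVN. Without CER replicate 2 its difference was 1.79 and still passed the threshold, and that of Ddc was 2.05 in place of 2.39. Ddc, the decarboxylase shared by dopamine and serotonin neurons, was more even, from 11.4 through 148 to 1077 CPM.

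Hox genes, which hold positional identity behind the midbrain, were read in CER libraries and hardly elsewhere. The 22 genes of the Hox list summed to 579 counts in the 15 CER libraries and to 88 counts in all other vehicle libraries, and 3 of the 22 had no count in CER. None passed the count filter, and in the edgeR fit without it 15 of 21 were higher in CER and 0 lower (background 14.9% higher and 12.9% lower of 20699 genes). Hoxb3 had the most counts, 133 in CER and 9 elsewhere, followed by Hoxa5 (81 and 7), Hoxb5 (78 and 13), Hoxa4 (59 and 6) and Hoxc4 (56 and 4). Exons of the antisense gene Hoxb3os cover 52.9% of the Hoxb3 exon bases, and since strand use in counting is not stated in the sources used here, reads of the pair cannot be told apart.

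The Hox signal split by punching date in vehicle animals. CER replicates 1 to 5, punched on dates 1 and 2, held 6 Hox counts in all, and those 6 were in replicate 1. Replicates 6 to 15, punched on dates 3 to 5, held 18 to 203 counts each, or 26.6 through 58.7 to 276 CPM, and the 2 sets did not overlap. Replicate 6 was highest with 203 counts. Hoxb3 was 0 in all of replicates 1 to 5 and ran from 9.68 to 46.2 CPM in replicates 6 to 15. In dexamethasone animals the sets did overlap, with 0 through 18.5 to 194 CPM on dates 1 and 2 and 12.7 through 42.5 to 144 CPM on dates 3 to 5. The part of the date in the vehicle values was not tested.

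Other genes moved with the same split, as the plot of single CER libraries shows. Otx2, a factor of forebrain and midbrain, ran from 6.01 through 14.2 to 114 CPM on dates 1 and 2 and from 0 to 7.99 CPM on dates 3 to 5. Its difference from the other regions, 1.19 ± 0.41 (SE; adjusted p = 0.0129, edgeR), was 0.16 without CER replicate 1, where it no longer passed (adjusted p = 0.770, edgeR), and -1.60 on dates 3 to 5 alone, which did not pass (adjusted p = 0.0848, edgeR). Slc17a7 ran from 7.89 to 30.4 CPM on the first 2 dates and from 18.0 to 231 CPM on the later ones. Gata3 ran from 45.7 to 61.5 CPM and from 2.71 to 48.7 CPM. Gad1 was higher than in the other regions on dates 1 and 2 (0.56, adjusted p = 0.00602, edgeR) and lower on dates 3 to 5 (-0.46, adjusted p = 0.00281, edgeR). Gad2 (0.12) missed the threshold on dates 3 to 5. Neurod1 did not move with the split, although it missed the threshold on dates 1 and 2, which hold 5 CER libraries. Its difference there was -1.06, against -1.20 over all dates. Its CER levels overlapped, from 3.92 to 22.3 CPM on dates 1 and 2 and from 1.36 to 21.8 CPM on dates 3 to 5. Gabra6 was at 0 on all 5 dates.

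**Figure D2:**
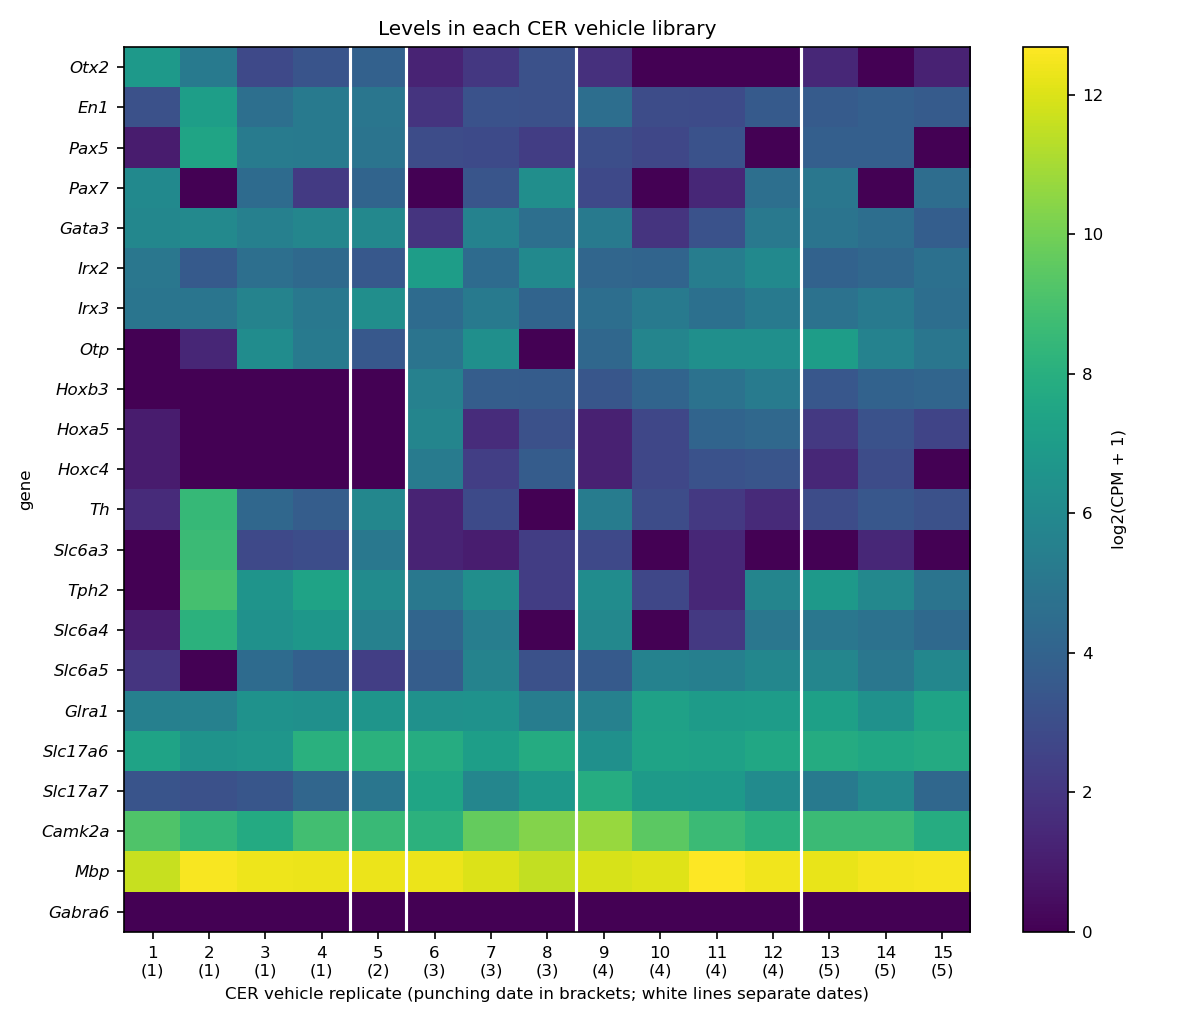
Level of 22 genes (rows) in each of the 15 CER vehicle libraries (columns), as log2(CPM + 1), with the punching date in brackets and white lines between dates. Hoxb3 is at 0 in replicates 1 to 5 and present in replicates 6 to 15, Slc6a3 and Th peak in replicate 2, Pax7 peaks in replicates 1 and 8, and Gabra6 is at 0 throughout, while Glra1, Slc17a6 and Irx3 are present in all 15.

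Genes of large, fast-conducting axons formed another group that was high in CER. Of 8 such genes tested, 7 were higher (background 24%), 5 of them enriched, with a median log2 difference of 2.16, and 1 was lower. Nefh, the heavy neurofilament subunit (chromosome 11, 4938754 to 4948064), ran from 99.9 through 290.3 to 568 CPM, and 4 libraries elsewhere reached the lowest CER library. Its difference was 2.78 ± 0.12 (SE; adjusted p = 1.12e-40, edgeR) from the mean and 1.98 from PVN, its nearest region. Vamp1, the vesicle protein of fast synapses, ran from 238 through 535 to 764 CPM, with a difference of 2.38 ± 0.10 (SE) and 3 libraries elsewhere reaching the lowest CER library. Syt2, the fast calcium sensor of release (3.10 ± 0.16, SE), Sncg (3.22 ± 0.21), Nefm (1.93 ± 0.10) and Spp1, which is known in large projection neurons (3.70 ± 0.19), belong to the same 15 genes with the largest smallest difference from any region. Nefl was higher by 1.15 ± 0.07 and overlaps Nefm in 1108 exon bases on the opposite strand, so the split of reads between the pair is uncertain.

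Of 11 genes of fast-spiking neurons, 8 were higher (background 24%) and 3 did not pass, with a median of 1.01. Scn4b, a sodium channel subunit, was enriched at 2.40 ± 0.22 (SE), with a difference of 0.01 from AMY. Pvalb, a calcium buffer of fast-spiking cells, was enriched at 1.81 ± 0.20 (SE) and ran from 95.0 through 162 to 497 CPM, with the highest other library, vDG replicate 15, at 443 CPM. The potassium channel genes Kcna1 and Kcnc1 were higher by 1.10 and 0.91.

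**Figure D3:**
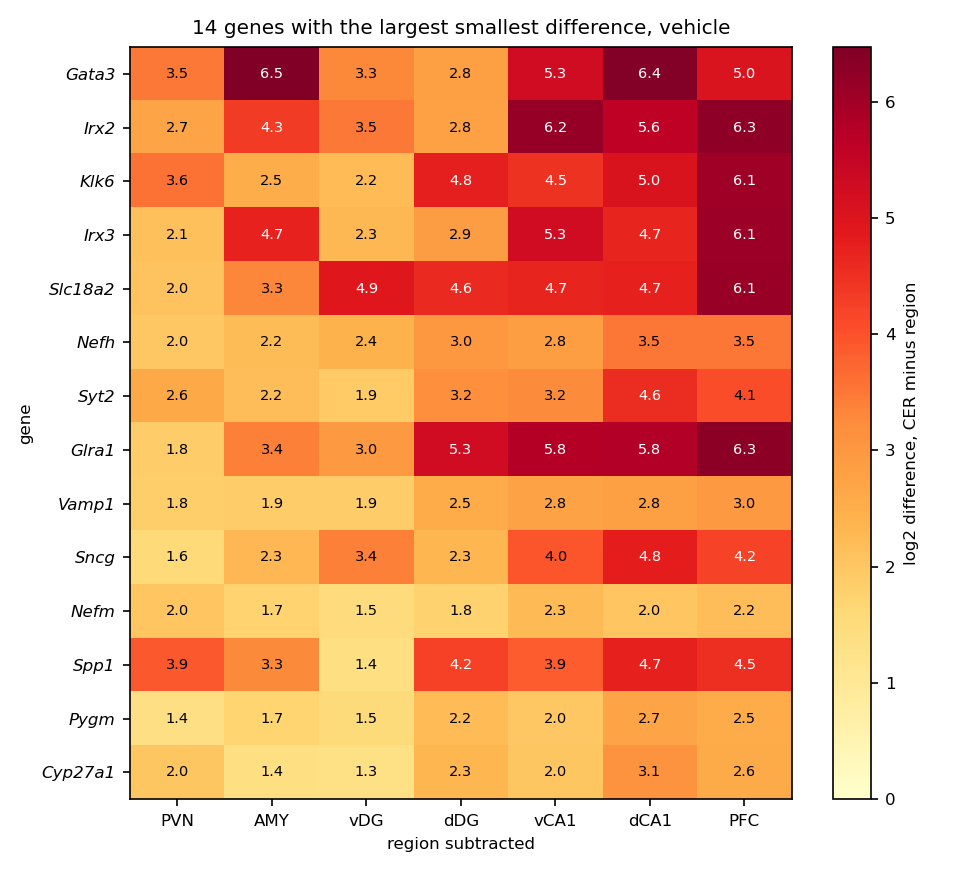
Log2 difference of CER from each single region (columns) for 14 of the enriched genes with the largest smallest difference (rows), from the fit over vehicle libraries. All 98 cells are at or above 1.33, PVN is the nearest region for 8 of the 14 rows by the values shown, and differences above 5 sit in regions where the gene had few counts.

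Myelin genes were all higher in the CER punches. All 15 genes of the myelin list passed the test (background 24%), 11 of them enriched, with a median log2 difference of 1.59. Mbp, myelin basic protein, ran from 2884 through 5089 to 6570 CPM, with medians elsewhere of 854 CPM in PFC to 3266 CPM in AMY, and differed by 1.56 ± 0.12 (SE; adjusted p = 4.92e-22, edgeR). AMY was the nearest region for Mbp, Mobp, Mag and Mog, at 0.42 to 0.73 log2 units below CER, and vDG replicate 14 held 5828 CPM of Mbp. The lowest CER library for Mbp was replicate 8. Klk6, a protease of oligodendrocytes, was enriched at 4.10 ± 0.23 (SE) and ran from 3.92 through 56.0 to 84.1 CPM, with 36 libraries elsewhere reaching the lowest CER library and 1 above the highest, vDG replicate 14 at 116 CPM.

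Astrocyte genes divided by region of origin. Of 6 genes of astrocytes outside the telencephalon, 5 were enriched (Agt, Slc6a11, Slc6a9, Itih3 and Sparc) and Gdf10 was depleted (background 1.66% enriched and 1.34% depleted). Of 5 genes of telencephalic astrocytes, 4 were lower, among them Mfge8, Lhx2 and Emx2, and Slc7a10 was higher (background 23.9% lower and 24% higher). Agt, angiotensinogen, ran from 38.1 through 61.7 to 148 CPM in CER, but PVN was higher, with a median of 146 CPM. Slc6a9 and 1 of the lower genes also stand on other lists, so these counts are not independent of those above. The microglia list had 7 of 8 genes lower (background 23.9%) with a median of -0.43, and the blood list had 0 of 4 genes past the threshold (background 47.9%).

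Cerebellar lists that passed the filter were mixed or low. Of 10 granule cell genes 5 were tested, none was higher (background 24%), Neurod1 (-1.20) and Pax6 (-0.83) were lower, and Cbln1, Zic1 and Grin2c did not pass. In the edgeR fit without the count filter 1 of the 10 was higher (background 14.9%). That gene was Fat2, at 2.82 ± 0.54 (SE; adjusted p = 1.94e-05, edgeR) from its 17 counts in 6 CER libraries, with a median of 0 in all 8 regions and a highest level of 40.0 CPM in vDG replicate 4 against 12.2 CPM in CER. Cbln3 (0.42, adjusted p = 0.690, edgeR) did not pass there. Against the mean of AMY, PFC and PVN alone, Neurod1 was at 0.37 and did not pass (adjusted p = 0.428, edgeR). Of 9 Purkinje genes 7 were tested, and Itpr1 (-1.29), Gng13, Homer3 and Calb1 (-2.10) were lower (background 23.9%), with 1 gene higher. All 3 Bergmann glia genes were lower. Calb1 had every library of the other regions above its CER median of 47.1 CPM.

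Hypothalamic and cortical lists bear on the nearest regions. Of 9 hypothalamus genes tested, Otp and Baiap3 were enriched (Baiap3 was 0.19 against the mean of AMY, PFC and PVN alone, adjusted p = 0.369, edgeR), Oxt, Avp and Pmch were lower and 4 did not pass (background 24% higher and 23.9% lower). Otp, a homeodomain factor of hypothalamic and hindbrain neurons, ran from 0 through 34.9 to 131 CPM in CER and had a median of 39.7 CPM in PVN, so its difference of 4.23 ± 0.26 (SE) from the mean came with 0.11 from PVN. CER replicates 1 and 8 had no Otp count and replicate 2 had 1.58 CPM. Sim1, which marks the paraventricular hypothalamus, had 1 count in 15 CER libraries. All 9 cortical projection genes were lower (background 23.9%), with a median of -1.79.

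**Figure D4:**
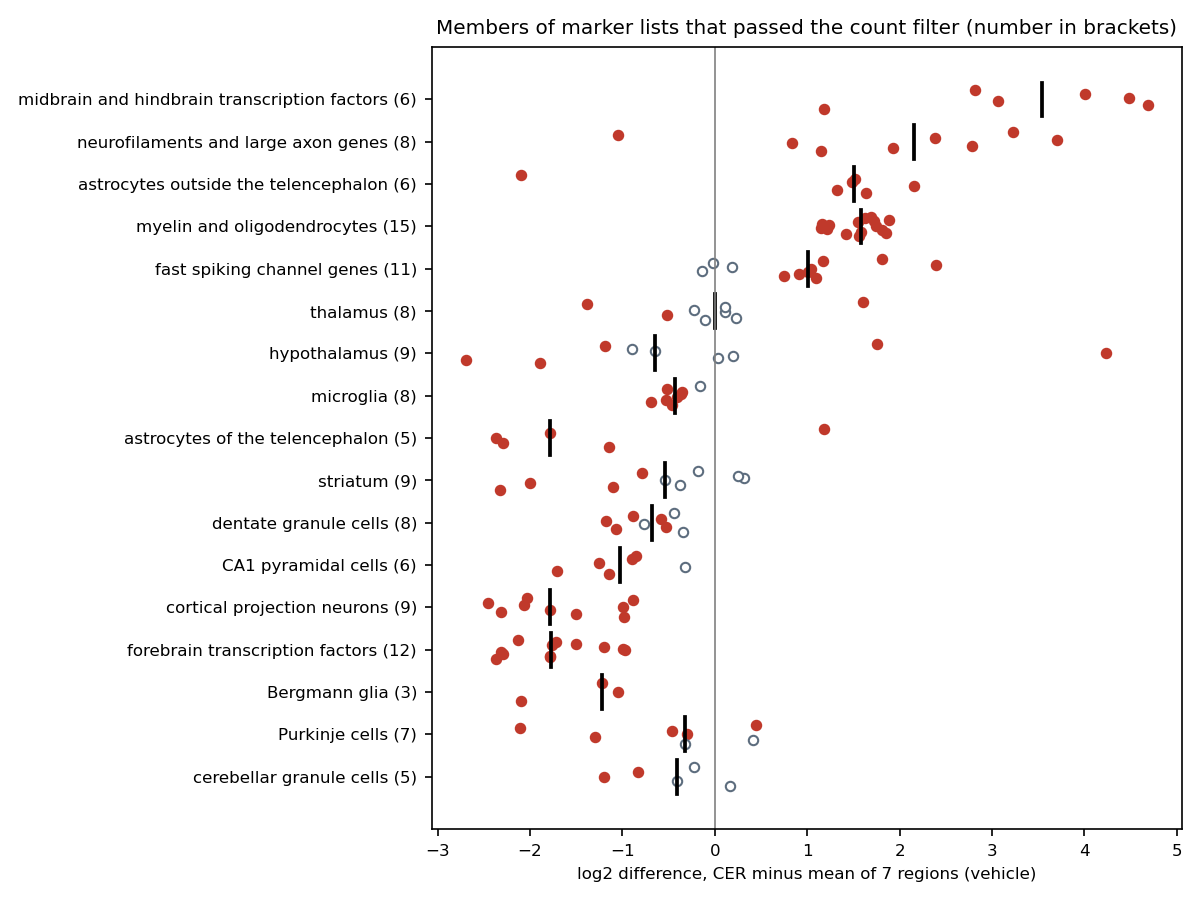
Log2 difference of CER from the mean of the 7 other regions for every list gene that passed the count filter, with 1 row per list and the number of genes in brackets. Red points passed an adjusted p of 0.05, open points did not, and the black bar is the median. Large axon genes (median 2.16) and myelin genes (1.59) lie to the right, and forebrain transcription factors (-1.77) and cortical projection genes (-1.79) to the left. Midbrain and hindbrain transcription factors passed the filter in part through CER itself.

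The comparison was repeated in the dexamethasone arm, which shares no animal with the vehicle arm. Of the 173 enriched genes 165 were tested there and 164 were higher, and all 136 depleted genes tested were lower (of 10531 genes in that arm 53.2% were called, 2.29% enriched and 2.64% depleted). Across 10275 genes, which are not independent, the differences of both arms had a Pearson r of 0.95. Enriched calls were shared by 158 genes, which is 91.3% of the vehicle list and 65.6% of the longer dexamethasone list. The log2 difference in dexamethasone animals was 4.74 for Gata3, 4.26 for Irx2, 4.75 for Glra1, 2.90 for Nefh and -3.78 for Dlx1. Tph2 ran from 14.8 through 61.3 to 438 CPM in the 15 dexamethasone CER libraries and was present in all of them. A difference between arms passed for 56 of 11053 genes (0.507%), and the 1 enriched gene that did not pass in dexamethasone animals, Mthfd2, an enzyme of mitochondrial folate metabolism, was among them.

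**Figure D5:**
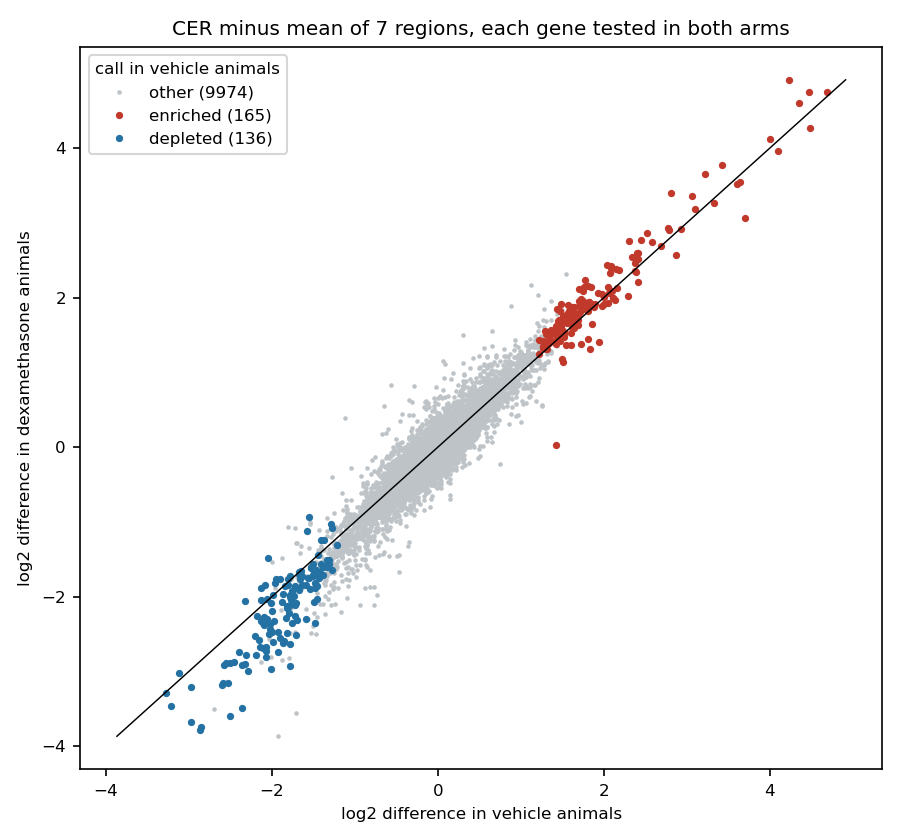
Log2 difference of CER from the mean of the 7 other regions in vehicle animals (x axis) and in dexamethasone animals (y axis) for 10275 genes tested in both, with the diagonal drawn. Red points are the 165 genes enriched in vehicle animals, blue points the 136 depleted ones, and grey the rest. The single red point near 0 on the y axis is Mthfd2.

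Dates 1 and 2, with 5 CER libraries, gave 77 enriched genes, 56 of them among the 173, and dates 3 to 5, with 10 CER libraries, gave 215, with 162 shared. Depleted genes numbered 107 and 104.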

How the data were processed

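The authors deposited 1 table of raw counts per gene, whole numbers for 27998 genes in the libraries of both arms. Per the submitters' processing notes it rests on cutadapt, UMI-tools 0.5.4, STAR 2.6.0a and featureCounts 1.6.4 with mm10. The authors also deposited variance-stabilised values on a log2 scale for 228 libraries, used here only to name the libraries of 1 alternative. Coordinates are those of the count table, and 99.9% of 27645 shared genes overlapped their GRCm38 position in GENCODE M21.

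Genes passing edgeR's filterByExpr by region were scaled with TMM and fitted with edgeR 4.0.16 (glmQLFit, glmQLFTest) over all vehicle libraries, with a term per region and per animal. The contrast was CER minus the mean of the 7 region terms, so a region near 0 pulls that mean down. Calls used a Benjamini-Hochberg adjusted p under 0.05. Enriched and depleted genes passed glmTreat against a log2 change of 1. The standard error is the difference divided by the square root of F. The script was tested on simulated counts. The animal tag in the labels sets the block: deviations of CER libraries correlated at 0.024 on average with the same animal's other regions and at -0.002 with other animals'.

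Named genes are the 15 enriched genes with the largest smallest difference from a region, the 10 with the largest difference from the mean, the 10 most depleted, all with a mean of at least 10 CPM, and members of marker lists. The plots of levels use a pseudocount of 1 CPM. Members and lists were chosen with earlier results of these data known. Some genes that met these rules are not reported here. Lhx1os and Sfrp5 also met the second rule, at 3.64 and 3.61. The labels give each library's animal, punching date and plate. Floors of 3 counts cover counting error only, while SDs and standard errors include the spread between libraries. Between any pair of vehicle libraries of 1 region, counts differed beyond sampling noise (chi-square over its degrees of freedom at least 1.35), so none was counted as a duplicate. R 4.3.3, limma 3.58.1, DESeq2 1.42.0 and Python 3.11.15 were used.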

Additional observations from a re-analysis of the deposited data

Results flagged for a closer look

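Gabra6 was read in dexamethasone CER libraries and not in vehicle ones: 11 counts in 4 of 15 libraries, with 16.1 CPM in replicate 14 and at most 2.54 CPM in the other 3, against 0 counts in all 15 vehicle CER libraries. Of the genes named here, Mthfd2 alone had a CER difference that changed between arms past the threshold, by -1.40 on the log2 scale (dexamethasone minus vehicle; adjusted p = 4.59e-13, edgeR). It was 1.42 in vehicle and 0.03 in dexamethasone animals.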

How the results depend on the processing

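Without the replicate block for the animal, 4970 genes were called, with 170 enriched and 135 depleted, and none of the 59 genes refitted by name changed its call. No filter on low counts gave 396 enriched genes, with 171 of the 173 among them, and at least 30 counts in at least 14 libraries gave 99. Against the mean of AMY, PFC and PVN only, 94 genes were enriched and 65 depleted. Against that mean Slc17a7 (0.25), Neurod1 (0.37) and Gad2 (-0.18) changed sign, none past the threshold. The dexamethasone libraries gave 278 depleted genes. Alternatives chosen after seeing the data were the punching dates, the removal of vCA1 and vDG, and leaving out each CER library. Punching dates 1 and 2 only gave 2334 calls (1212 higher, 1122 lower) and 77 enriched genes, and dates 3 to 5 only gave 215 enriched genes. Gad1 was 0.56 on dates 1 and 2, ran from -0.19 to 0.0045 on leaving out 1 CER library (0.0045 without replicate 6), and Otx2 was -1.60 on dates 3 to 5, not past the threshold. Leaving out 1 CER library gave 4746 to 5111 calls (2252 to 2516 higher, 2388 to 2602 lower), 147 to 182 enriched and 128 to 212 depleted genes. Otx2 missed the threshold without CER replicate 1 (0.16), without replicate 2 (0.91) and in DESeq2 (0.99). The cause of these changes was not tested. At these depths 3 counts in 1 CER library are 2.94 CPM or more, so single-library levels below that are not resolved.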
